A study of Mus musculus with 8 samples.

Results

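Interferon-inducible GTPases and genes of class I antigen presentation were described in mouse mammary epithelial cells that lack Uba7, with added UBE1L set against an empty vector. The 7 genes were taken by symbol from the authors' deposited table of 259 genes, and all 7 were found. They are the guanylate-binding proteins Gbp5 and Gbp8, the immunity-related GTPases Tgtp1, Iigp1 and Ifi47, the class I regulator Nlrc5 and the immunoproteasome subunit Psmb9. They were chosen with their fold changes known, so those values are given as a description and no test was made of them.

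The cells were of the FVB strain, carried the PyVmT label in the design text, and lacked Uba7, the gene of UBE1L, which activates the ubiquitin-like protein ISG15. Cells with UBE1L and cells with the empty vector had each received IFN and then LPS at 100 ng/mL for 6 hours, with 2 libraries in each group. Another 4 libraries, with IFN and no LPS in the labels, were not analysed here. All groups share the Uba7 knockout and the IFN, whose type and dose the sources used here do not give. No group with intact Uba7 is described, and the labels leave unsaid whether both libraries of a group stem from separate cultures. P-values may therefore measure technical spread only, and any other difference between the cells given UBE1L and those given the vector cannot be told apart from UBE1L. The table holds 1 fold change, mean abundance, likelihood ratio, p and adjusted p per gene and no values per library, so neither the spread between libraries nor any overlap of the groups can be shown.

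Guanylate-binding proteins (GBPs) and immunity-related GTPases (IRGs) are among the most strongly induced products of interferon-treated mouse cells, and they assemble on vacuoles and membranes that hold intracellular pathogens. Most IRGs bind GTP as effectors of the GKS subclass, while the GMS subclass (Irgm1, Irgm2 and Igtp) keeps them inactive on the cell's own membranes. Class I presentation runs from the immunoproteasome, which cuts cytosolic proteins, through the TAP transporter to MHC class I molecules at the cell surface, and NLRC5 is a transcriptional activator of several of its genes.

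Interferon acts on such genes through the interferon-stimulated response element (ISRE) and the gamma-activated site (GAS), and the sequences before their start sites were searched for both. The first set of sequences is shown because 4 of the 12 GBP and IRG genes with a RefSeq promoter carried a GAS directly followed by an ISRE core. The sequences come from RefSeq (GRCm38.p6, from C57BL/6J mice, not FVB) and run 5′ to 3′ on the strand of the gene. Capitals mark the GAS, TTCNNNGAA, and then the ISRE core, which is GAAA, any NN and again GAAA. Tgtp1 lies at chr11:48992304-48992344 and Tgtp2 at chr11:49064263-49064303, both on the minus strand, and Igtp at chr11:58199501-58199541 and Irgm2 at chr11:58214892-58214932, both on the plus strand.
Tgtp1: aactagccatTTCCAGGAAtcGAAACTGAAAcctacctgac
Tgtp2: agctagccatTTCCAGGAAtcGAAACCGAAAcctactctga
Igtp: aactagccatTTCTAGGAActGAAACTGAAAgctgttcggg
Irgm2: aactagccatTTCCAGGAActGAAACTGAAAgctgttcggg
In each of the 4 there were 2 bases between the motifs. That spacing, looked for after it had been seen in these genes, occurred in 5 of 27025 genes with a promoter (0.0185%). The other gene was Gm12185, which is not on the GBP and IRG lists. Transcripts of Tgtp1 share sequence with those of Tgtp2 and of Gm12185, and transcripts of Igtp with those of Irgm2. The 5 genes therefore cannot be counted as independent occurrences of the spacing. Of these genes Tgtp1 alone is in the authors' deposited table.

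The upstream window of Gbp5, on the plus strand at chr3:142496684-142496933, is shown because it was the only promoter of the 12 with matches to the ISRE core, the GAS and the NF-kB consensus. Capitals mark, in order, a GAS, the ISRE core on the reverse strand, an NF-kB consensus match and another GAS.
Gbp5: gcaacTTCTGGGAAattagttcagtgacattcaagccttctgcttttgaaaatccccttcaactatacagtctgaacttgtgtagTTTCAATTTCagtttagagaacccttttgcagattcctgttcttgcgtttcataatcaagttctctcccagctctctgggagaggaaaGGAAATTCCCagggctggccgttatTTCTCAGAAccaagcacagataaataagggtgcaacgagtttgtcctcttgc
The GAS matches began 245 and 52 bases before the start site, the ISRE core 165 and the NF-kB match 77, and none of the 4 overlapped another.

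The 7 genes were higher with UBE1L by modest factors. Their log2 fold changes (UBE1L over empty vector) in the authors' deposited table lay between 0.53 and 0.88, with a median of 0.63. All 7 of the 7 were higher, beside 83.8% of all 259 genes of that table, so the shared direction says little about these genes. Among the 217 higher genes the authors' deposited table gives a median of 0.72, and 3 of the 7 reached it. No gene of the authors' deposited table has an absolute log2 fold change under 0.50, a limit that Iigp1 and Ifi47 exceed by little, and values of genes outside the limits were not analysed here. A change in library scaling of more than 0.53 log2 units would be needed to turn round the direction of the lowest of the 7, and none could be tried without values per library.

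**Figure D1:**
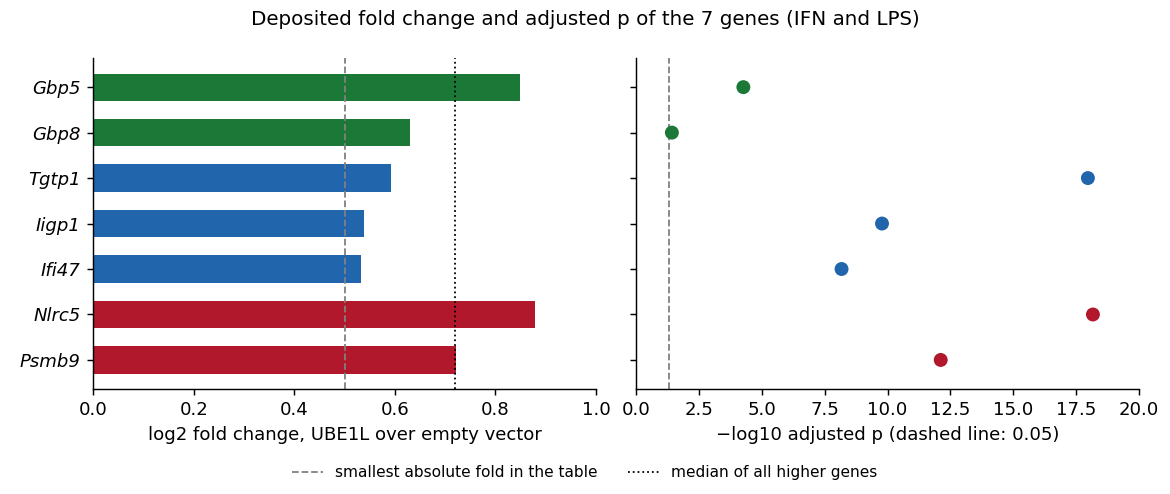
Left, log2 fold change of UBE1L over empty vector for the 7 genes, with lines at the smallest absolute fold of the table (0.50) and at the median of its higher genes (0.72). Right, −log10 of the deposited adjusted p with a line at 0.05. Gbp5, Nlrc5 and Psmb9 reach the median, and Gbp8 lies nearest to the p threshold.

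Gbp5, a guanylate-binding protein that promotes inflammasome activation in mouse macrophages, stood 1.80-fold higher with UBE1L (log2 0.85, likelihood ratio 21.8, adjusted p 5.43e-05) in the authors' deposited table. Gbp8, a less studied member of the family, stood 1.55-fold higher (log2 0.63, likelihood ratio 6.25, adjusted p 0.0378) in the authors' deposited table. These were the lowest mean abundances of the 7, at 3.06 log2 CPM for Gbp5 and 2.18 for Gbp8 (CPM being counts scaled to library size) in the authors' deposited table. By p, Gbp8 stood 241st from the lowest of the 259 genes, near the table's own limit, since its largest adjusted p is 0.0498. Of the list of 11 guanylate-binding proteins, 2 were higher, 0 lower and 9 not in the authors' deposited table. Beside this, 0.722% of genes with a RefSeq promoter are in the table, and 83.8% of its genes were higher. Gbp5 and Gbp8 were chosen because they are in it, so nothing is read from this count. Genes missing from the table may have been untested, below its fold limit or above its p limit, so they cannot be called unchanged.

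Tgtp1 (also Irgb6), an IRG that loads onto parasite vacuoles, was 1.51-fold higher with UBE1L (log2 0.59, likelihood ratio 89.5, adjusted p 1.07e-18) in the authors' deposited table. Iigp1 (also Irga6), the best studied effector of the family, had a log2 fold change of 0.54 (1.45-fold, likelihood ratio 49.5, adjusted p 1.66e-10) in the authors' deposited table. For Ifi47 (also Irgd), a further effector, the authors' deposited table gives 0.53 (1.45-fold, likelihood ratio 41.7, adjusted p 6.75e-09). The IRGs had the smallest folds of the 7 and the highest abundances, at 7.10 log2 CPM for Tgtp1, 7.01 for Iigp1 and 5.70 for Ifi47 in the authors' deposited table. Tgtp1 and Iigp1 rank 14th and 16th of the 259 genes by that abundance, though the value of Tgtp1 may hold reads of Tgtp2, as described below. Of the list of 11 IRGs, 3 were higher, 0 lower and 8 not in the authors' deposited table. Here too the shares over all genes were 0.722% in the table and, of those, 83.8% higher. All 3 belong to the GKS effector subclass, and none of the GMS regulators Irgm1, Irgm2 and Igtp is in the table, a grouping made after the values were seen. The other listed IRGs (Tgtp2, Gm12250, Gm4951, Gm4841 and F830016B08Rik) are not in it either. The 3 were chosen because they are in the table, so nothing is read from this count or grouping. Among 3 interferon-inducible GTPases of other families (Mx1, Mx2 and Gvin1), Mx1, a dynamin-like antiviral GTPase, is in the authors' deposited table at 0.66 log2 units and 7.15 log2 CPM.

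Nlrc5 had the largest fold of the 7 and stood 1.84-fold higher with UBE1L (log2 0.88, likelihood ratio 90.6, adjusted p 6.78e-19) in the authors' deposited table. Psmb9, which replaces a constitutive catalytic subunit in the immunoproteasome, stood 1.65-fold higher (log2 0.72, likelihood ratio 61.2, adjusted p 7.67e-13) in the authors' deposited table. Mean abundance was 4.71 log2 CPM for Nlrc5 and 5.12 for Psmb9 in the authors' deposited table. Of the 26 genes of the class I list, 2 were higher, 0 lower and 24 not in the authors' deposited table. Beside this, 0.722% of genes with a RefSeq promoter are in the table, and 83.8% of its genes were higher. Nlrc5 and Psmb9 were chosen because they are in it, so nothing is read from these counts. Those 24 include the MHC class I heavy chains, B2m, the transporter subunits Tap1 and Tap2, and the other interferon-inducible proteasome subunits Psmb8 and Psmb10. None of 3 constitutive catalytic subunits (Psmb5, Psmb6 and Psmb7) and none of 9 class II presentation genes, Ciita included, is in the table either. Of 8 genes of the NLR family, to which Nlrc5 belongs, Nod2, a sensor of bacterial wall fragments, is also in the authors' deposited table, with 0.54 log2 units and an adjusted p of 0.00369.

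Fold and abundance ordered the 7 genes differently. Gbp8 and Tgtp1 had nearly the same log2 fold change (0.63 and 0.59), yet likelihood ratios of 6.25 and 89.5 at mean abundances of 2.18 and 7.10 log2 CPM in the authors' deposited table. Mean abundance lay above the median of all 259 genes (2.95 log2 CPM) for 6 of the 7 in the authors' deposited table. An abundance of at least 4 log2 CPM was reached by 5 of the 7, beside 28.6% of all genes in the authors' deposited table. For those 5 the median log2 fold was 0.59, against 0.62 for the 59 other higher genes past that abundance in the authors' deposited table. The IRGs, Nlrc5 and Psmb9 thus sat among the more abundant genes of the table, while Gbp5 (124th of 259 by abundance) lay near its middle and Gbp8 (198th) below it.

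Levels can be set between genes only per length. Divided by the length of the annotated transcript with the longest coding sequence (GENCODE M21), the abundance of the authors' deposited table came to 5.60 log2 CPM per kilobase for Tgtp1, 5.37 for Iigp1, 4.87 for Ifi47 and 4.68 for Psmb9. It was 1.79 for Nlrc5, 1.44 for Gbp5 and 0.88 for Gbp8 on that scale of levels, from the authors' deposited table. The order therefore had the IRGs and Psmb9 above Nlrc5 and the GBPs. Nlrc5 has the longest of these transcripts, at 7578 bases with 5745 coding, and Psmb9 the shortest, at 1352 bases with 657 coding. No spread over libraries can be given for this order, and the sources used here do not give the lengths the authors used. Most of the transcript sequence of Tgtp1 is shared with Tgtp2, as described below. The level of Tgtp1 and its first place therefore depend on how shared reads were assigned.

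**Figure D2:**
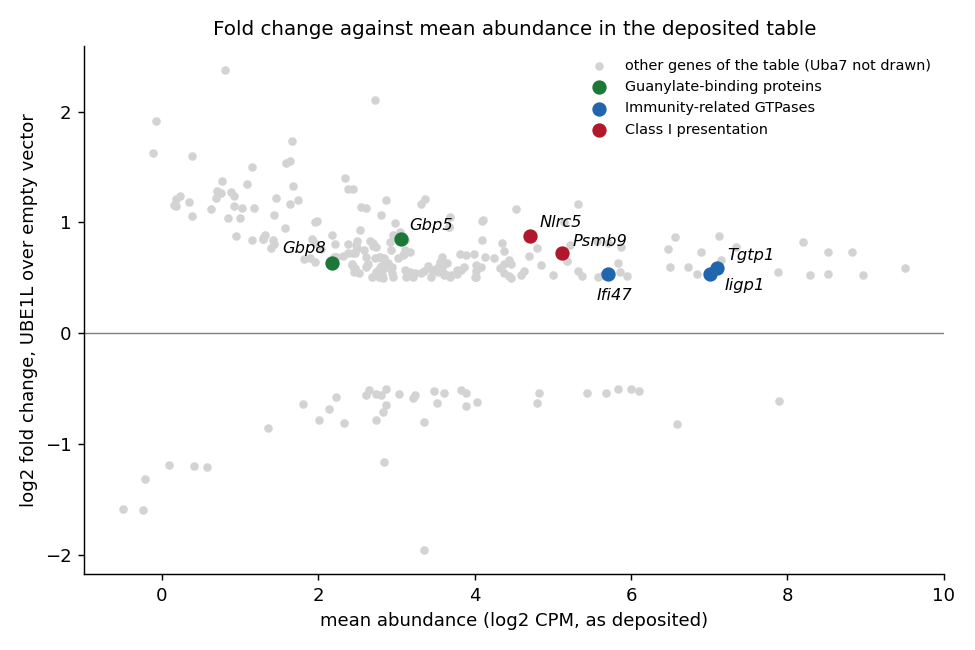
Each point is a gene of the authors' deposited table, by mean abundance (log2 CPM) and log2 fold change of UBE1L over empty vector; Uba7, at 9.58 log2 CPM and 5.72, is not drawn. The immunity-related GTPases lie to the right with folds of 0.53 to 0.59, and Gbp8 lies to the left at 2.18 log2 CPM.

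Stricter limits separated the 7. An adjusted p under 0.01 was met by 6 of them, all but Gbp8, beside 68.3% of all genes in the authors' deposited table. Under 1e-05 there were 5, without Gbp5 and Gbp8, beside 33.6% of all genes. A log2 fold of at least 0.7 was reached by 3 of the 7 (Nlrc5, Gbp5 and Psmb9), beside 43.6% of all genes, and at least 1 by 0 of the 7, beside 19.7% of all genes in the authors' deposited table. The share past a log2 fold of 1 was thus lower among the 7 than over the whole table, and the share past an adjusted p of 1e-05 was higher. With 7 genes chosen by symbol, neither difference was tested.

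The GTPase genes lie in clusters of near relatives, and 5 of the 22 listed ones are in the table. Of the 12 listed ones with a RefSeq promoter 3 are in it, beside 195 of all 27025 such genes (0.722%), expressed or not. These 5 were chosen because they are in the table, so nothing is read from that share. By RefSeq gene order, 1 of 5 listed GBP genes on chromosome 3 (Gbp5) and 1 of 6 on chromosome 5 (Gbp8) are in the authors' deposited table. On chromosome 11, 2 of 4 listed genes are in it in the cluster with Irgm1, Tgtp1, Tgtp2 and Ifi47, and 0 of 3 in the cluster with Gm12250 (also Irgb10), Igtp and Irgm2. On chromosome 18, 1 of 4 listed genes (Iigp1) is in it. The lists may leave out relatives, since Gm12185 and the genes on either side of Tgtp1, 9930111J21Rik1 and 9930111J21Rik2, share transcript sequence with Tgtp2 and are not on them. Of the 14 protein-coding genes next to the 7 by order of RefSeq start positions, 1 is in the authors' deposited table. It is Herpud1, an endoplasmic reticulum stress gene beside Nlrc5 on chromosome 8, with a log2 fold change of 0.51. Olfr56, which is in the table and whose annotated span encloses Ifi47 and Tgtp1, is not among the 14 and is described below.

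**Figure D3:**
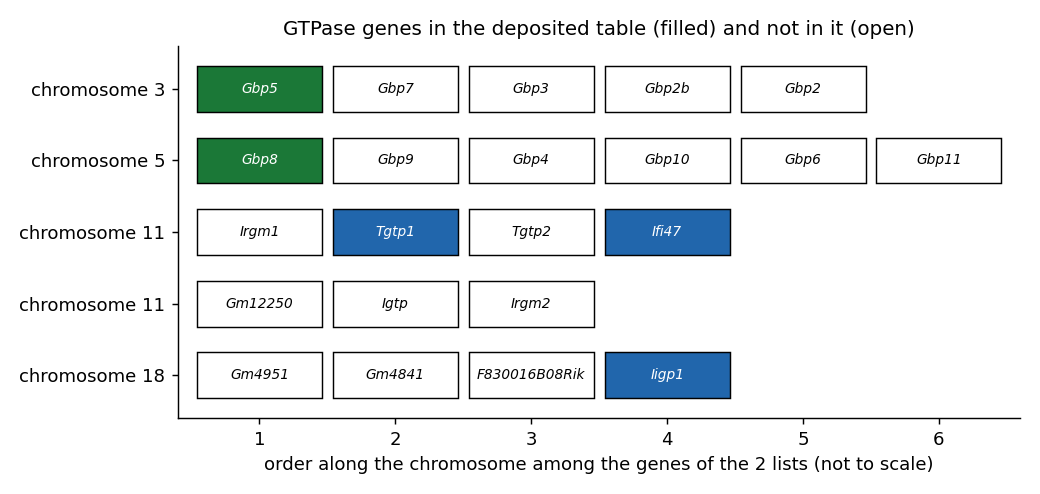
Each box is a gene of the GBP and IRG lists in its order along the chromosome, filled where the authors' deposited table holds it (green for GBPs, blue for IRGs) and open where it does not. Of 22 boxes 5 are filled, with at most 2 in a cluster.

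How well reads of 50 bases can separate these relatives differs between the 7. The transcripts of each gene in GENCODE M21 were divided into overlapping stretches of 50 bases, which were looked up in all other genes on the same strand. None of 8568 stretches of Nlrc5 and none of 3892 of Psmb9 occurred elsewhere. The shares were 1.44% for Gbp5, with none of it in a listed GBP or IRG, and 1.69% for Iigp1, mainly with its relative Gm4951. In Gbp8 18.1% of stretches also occurred in another GBP gene of its cluster, from 186 stretches in Gbp6 to 253 in Gbp11. Tgtp1 was the most ambiguous, since 81.2% of its stretches occurred elsewhere, 2480 of 3122 of them in Tgtp2. The coding sequences of Tgtp1 and Tgtp2 were identical at 1241 of 1245 bases (99.7%). The value printed for Tgtp1 may thus hold reads of both genes or a part of either, and Tgtp2 is not in the authors' deposited table.

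**Figure D4:**
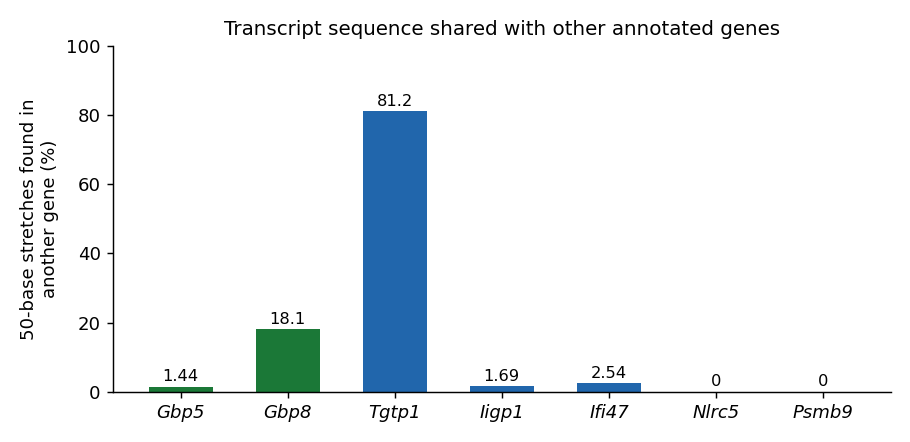
Bars give, for each of the 7 genes, the share of 50-base stretches in its GENCODE M21 transcripts that also occur in another annotated gene. Tgtp1 stands at 81.2% and Gbp8 at 18.1%, and the other 5 are at 2.54% or below.

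Ifi47 shares sequence with a gene of another family. The annotated span of Olfr56, named as an olfactory receptor gene, encloses Ifi47, Tgtp1 and Tgtp2, and it uses an exon of 111 bases that is also an exon of Ifi47 on the same strand. Both genes hold 64 stretches in common (2.54% of those of Ifi47). Olfr56 is in the authors' deposited table too, with a 1.99-fold higher level with UBE1L (log2 0.99, adjusted p 8.24e-07) at 2.98 log2 CPM. The fold of Olfr56 exceeds that of Ifi47, which has 0.53 log2 units and 5.70 log2 CPM in the authors' deposited table. Whether the 2 folds differ was not tested, and the part of the shared exon in either value was not tested.

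Interferon motifs stood before GTPase genes both in the table and outside it. The ISRE core (both strands, 250 bases before the start site) was in 11 of the 12 GBP and IRG genes with a RefSeq promoter, against 3.46% of all 27025 genes. By presence in the authors' deposited table, it was in 2 of 3 genes (Gbp5 and Tgtp1) and in 9 of 9 genes outside it. Ifi47 had no exact match to this core in its window. The GAS was in 7 of the 12, 2 of 3 in the table and 5 of 9 outside it, against 8.13% of all genes. An NF-kB consensus match (both strands) was in 1 of the 12, Gbp5, against 4.46% of all genes. A match describes letters in a window and is not shown to be a bound site. Gbp8, Iigp1 and Nlrc5 were not searched.

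**Figure D5:**
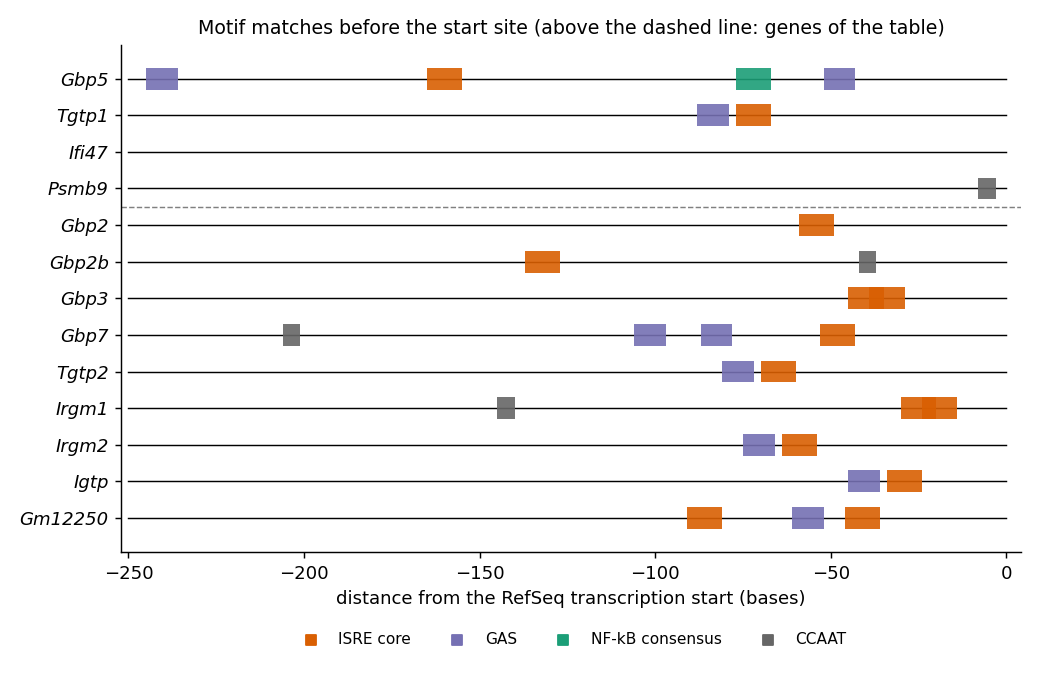
Matches to the ISRE core, GAS, NF-kB consensus and CCAAT in the 250 bases before the RefSeq start site of the first annotated window of each gene; genes of the authors' deposited table stand above the dashed line. Tgtp1, Tgtp2, Irgm2 and Igtp have a GAS 2 bases before an ISRE core, and Ifi47 has no match.

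Class I genes were searched in the same way. CCAAT (both strands), the core of the Y box in MHC promoters, was in 15 of 22 class I genes with a promoter, against 37.5% of all genes. The NF-kB consensus was in 8 of the 22 (36.4%, against 4.46% of all genes) and the GAS in 2 (9.09%, against 8.13%). Those 8 were B2m and the MHC class I heavy chain genes H2-D1, H2-K1, H2-M3, H2-Q4, H2-Q6, H2-Q7 and H2-T22. The same heavy chain genes are among the 15 with CCAAT. They are relatives of one another, so their matches cannot be counted as independent occurrences. The ISRE core was in 3 (13.6%, against 3.46%), which were B2m, H2-T22 and H2-T23. The window of Psmb9, on the minus strand at chr17:34187331-34187580, is shown because it is also the promoter of Tap1, a class I gene that is not in the authors' deposited table. Capitals mark CCAAT on the reverse strand.
Psmb9: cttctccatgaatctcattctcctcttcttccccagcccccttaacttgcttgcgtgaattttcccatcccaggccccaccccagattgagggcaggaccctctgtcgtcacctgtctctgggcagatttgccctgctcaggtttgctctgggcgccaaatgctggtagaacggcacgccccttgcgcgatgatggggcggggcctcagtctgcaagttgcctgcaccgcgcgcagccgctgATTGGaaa
The start sites of Psmb9 and Tap1 lie 226 bases apart on opposite strands, and 225 of the 250 bases searched for each are the same. The CCAAT match of Psmb9 and that of Tap1 are the same site, which is counted for both genes among the 15. This window held no exact ISRE core, GAS or NF-kB match. The pair thus share a promoter while Psmb9 alone is in the authors' deposited table, and the fold of Tap1 was not analysed here.

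Genes that act before or after these proteins were looked up in the same way. Absence is what most genes show, as 0.722% of all genes with a RefSeq promoter, expressed or not, are in the authors' deposited table. By the authors' deposited table Uba7 itself was 52.7-fold higher in the UBE1L cells, the direction that the labels give. The other 5 genes of the ISGylation list, 17 genes of interferon receptors and signalling (Stat2, Irf1 and Socs1 included) and 10 autophagy and ubiquitin partners of the GTPases are not in it. Of 11 genes of the inflammasome list, only the cytokine gene Il1a is in the authors' deposited table. It has a log2 fold change of 1.12, an adjusted p of 0.0229 and a low abundance of 0.62 log2 CPM. The labelled cell type cannot be checked here. The table holds only genes past its limits on fold and adjusted p, so a marker missing from it may still be expressed. In the authors' deposited table are 1 of 7 luminal markers (Kit, 1.02 log2 units), 0 of 4 basal markers and 0 of 5 macrophage and leukocyte markers. Of 4 fibroblast markers, 3 were higher in the UBE1L cells of the authors' deposited table: Col3a1 by 0.82, Col1a1 by 0.52 and Dcn by 0.51 log2 units. Pdgfra is not in it. Since 83.8% of all its genes were higher, the shared direction of these markers says little. Their presence, 3 of 4, lies far above the 0.722% of genes with a RefSeq promoter. The marker lists were chosen with earlier results of these data known, so that presence was not tested. The part of these markers in the values of the GTPase and presentation genes was not tested. In bulk RNA a change in the number of cells of a type and in RNA per cell cannot be told apart.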

How the data were processed

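RNA was sequenced as single 50-base reads from stranded poly-A libraries, per the labels' protocols. The submitters' processing notes name edgeR, Salmon 0.9.1 and Trimmomatic 0.36 without saying what each did; for the build, annotation, filters and model the sources used here say nothing. The log2 fold change and log2 CPM were used as deposited by the authors, with the base of both logarithms taken as 2. The likelihood-ratio score, its p-value and the adjusted p-value were also used as deposited, the last with a header that names both Bonferroni and FDR. The p-value equals the chi-square tail of the likelihood ratio with 1 degree of freedom to within a relative difference of 6.60e-13. The table holds selected genes, no values per library and no depth, so no spread between libraries or counting interval is given and no test was run on it, and the standard errors under the other observations are approximations from the authors' likelihood ratio. Of the planned settings, fits per library could not be run.

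Genes were named by symbol: the 7 genes, listed members of 15 lists, and listed neighbours; Olfr56, which overlaps Ifi47, was named after its values were seen. The genes, lists and tests were chosen with earlier results of these data known. Shared stretches and coding identity (global alignment, gaps left out) used GENCODE M21 transcripts; gene order, synonyms and promoters came from RefSeq (GRCm38.p6). The motif and stretch searches recovered 24 of 24 planted motifs and 4 of 4 shared sequences in simulated data. RefSeq promoters were found for 4 of the 7 genes. Python 3.11.15 was used.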

Additional observations from a re-analysis of the deposited data

How the results depend on the processing

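Limits on fold, p or abundance only choose among the deposited rows, so no direction can change. Of the 7 genes, 6 passed at an adjusted p under 0.01, 5 under 1e-05 and 5 with 4 or more log2 CPM in the authors' deposited table. A log2 fold of 0.7 or more in size left 3 and of 1 or more left 0, lower counts that follow from the settings' construction. Matching by RefSeq synonyms left 5 listed GTPase genes and 2 listed class I genes. With 1 mismatch allowed in the ISRE core, 3 of the 4 searched promoters of the 7 genes held it in place of 2, Ifi47 joining, but so did 34.7% of all genes. No paired analysis was possible because single libraries have no values in the table. Likewise the fits with other scaling, other filters or left-out replicates were not run, and what depth limits could not be measured.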

Other observations

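An approximate standard error was derived from each fold and its likelihood ratio in the authors' deposited table (absolute fold over the square root of the ratio), after the values were seen. It rests on the authors' model and adds no information on single libraries. On the log2 scale it gave 0.88 with an approximate 95% interval of 0.70 to 1.06 for Nlrc5, 0.85 with 0.49 to 1.20 for Gbp5 and 0.72 with 0.54 to 0.90 for Psmb9, from the authors' deposited table. The interval was 0.14 to 1.12 for Gbp8, 0.47 to 0.72 for Tgtp1, 0.39 to 0.69 for Iigp1 and 0.37 to 0.69 for Ifi47, from the authors' deposited table. The intervals of Tgtp1, Iigp1 and Ifi47 overlap closely, that of Gbp8 encloses all other 6 folds, and the differences between genes were not tested.

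In coding sequence the closest relative of Gbp5 within its list was Gbp2b, identical at 68.0% of aligned bases. Gbp8 was identical to Gbp11 at 96.0% of 1080 aligned bases, with 741 bases in gaps. It was identical to Gbp4 at 92.9%, to Gbp10 at 91.7%, to Gbp6 at 91.2% and to Gbp9 at 90.3% of aligned bases, and its own coding sequence of 1575 bases is shorter than the 1893 bases of Gbp4. Gm12250 was left out because GENCODE M21 holds no protein-coding transcript of it with a complete coding sequence. Of the 10 IRGs compared, the nearest to Iigp1 was Gm4951, at 88.0%, and Ifi47 was at most 59.3% identical to any other. None of these relatives is in the authors' deposited table.

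Of the 195 genes of the authors' deposited table with a RefSeq promoter, the ISRE core was in 10 of 162 higher genes (6.17%) and 0 of 33 lower genes, beside 3.46% of all genes. The 10 include Gbp5 and Tgtp1, and at a share of 3.46% a count of 0 among 33 genes says little. With 1 mismatch allowed the shares were 35.8% of the higher and 30.3% of the lower genes, beside 34.7% of all genes. The difference between higher and lower genes was not tested. The GAS was in 12 of the 162 (7.41%) and 3 of the 33 (9.09%), beside 8.13% of all genes.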
